A study of Mus musculus with 2 samples.

Results

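The Bmp4 locus is the interval chr14:46500000-47500000 of the mouse genome (build mm9), 1 of 11 segments tiled on an array for chromatin immunoprecipitation (ChIP-chip) of Rad21. Its members are the fixed 1 kb windows of the interval that hold at least 3 probes, and 855 of the 14947 windows measured across all segments lie in it. The interval has 1000 such windows, so 145 were not measured, 104 of them because no probe falls in them. The interval holds 9913 probes, 60 bp long, at a median spacing of 60 bp, and some of them lie in windows not measured.

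Rad21 was immunoprecipitated from crosslinked RAG cells, a mouse renal adenocarcinoma line that the study describes as having Pax6 switched off. The only group has 2 arrays, replicates 1 and 2, each from its own flask of cells. ChIP and input DNA were amplified, reamplified and hybridised together in Cy3 and Cy5. There was no other genotype or treatment and no second antibody, so each comparison is between the 2 dyes, between positions or between the arrays.

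The direction of the ratio is not settled by the sources. The sample labels put the input in Cy3 and the ChIP DNA in Cy5, while the log2 table the authors deposited runs as Cy3 over Cy5. Across probes of the locus the deposited values correlated with the running median of the Cy3/Cy5 ratio computed here at Pearson r = 0.924 on replicate 1 and 0.933 on replicate 2 (n = 9572 probes, a description). All values below are therefore log2 Cy3/Cy5, centred on the median of all probes of the array, and are named by dye: values above 0 are higher in Cy3.

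Rad21 is a subunit of cohesin, the ring complex that holds DNA strands together and extrudes chromatin loops. Cohesin is often retained where the zinc finger protein CTCF is bound, and loop anchors tend to carry CTCF motifs that point towards each other. Bmp4 encodes bone morphogenetic protein 4, a secreted ligand of the TGF-beta superfamily that patterns many tissues, the kidney among them, and its expression is governed in part by distant elements. CTCF was not measured on these arrays, so its place below is taken only by the letters of its core motif.

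The CTCF core consensus, 12 bases long, was searched on both strands with at most 1 mismatch. The stretches below are shown because 4 of them hold the core in the regions with the highest summits. The last is 1 of 2 matches in the gap between regions 1 and 2, inside neither. Regions higher in Cy3 are described next and numbered 1 to 9 along the plus strand. Each is 60 bases of the reference genome in the orientation of the motif, 5′ to 3′, and the capitals mark the core.

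Region 3, plus strand, chr14:46613505-46613564: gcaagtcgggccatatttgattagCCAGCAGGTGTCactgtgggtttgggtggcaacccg
Region 5, minus strand, chr14:47184832-47184891: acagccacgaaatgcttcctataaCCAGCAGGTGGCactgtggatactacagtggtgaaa
Region 6, minus strand, chr14:47322993-47323052: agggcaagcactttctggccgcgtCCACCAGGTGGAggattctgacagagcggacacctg
Region 7, minus strand, chr14:47341895-47341954: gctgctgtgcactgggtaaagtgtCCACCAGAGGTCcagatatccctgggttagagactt
Between regions 1 and 2, minus strand, chr14:46578709-46578768: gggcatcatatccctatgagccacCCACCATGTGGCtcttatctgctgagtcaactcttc

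Against the consensus, with positions counted from 1 at the 5′ end of the core, region 5 had no mismatch, regions 3 and 7 had G11T and region 6 had C12A. From the first base of the core onwards, regions 3 and 5 shared 18 of 20 bases, and 27 over the whole 60. Of those 20 bases, 12 are the core that the search required, so much of this likeness follows from the search.

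The first question was where in the locus the dyes differed beyond the spread between the arrays, moderated over all windows. In the test of all windows (limma, mean of 2 arrays against 0, Benjamini-Hochberg over all 14947 windows, threshold 0.05), 27 windows of the locus were higher in Cy3, or 3.16%, beside 3.69% over all windows. A further 10 were higher in Cy5, or 1.17%, beside 5.41% over all windows. At an unadjusted p under 0.05 (limma), 64 windows were higher in Cy3 and 79 in Cy5. The shares of all windows at that cut are not given here. The split between the dyes moved with the centring and normalization. With each array centred on its mode it was 22 and 31, beside 3.08% and 9.67% of all windows. Centred on the probes of the locus it was 26 and 20, beside 3.69% and 8.01%. After loess it was 28 and 3, beside 4.0% and 1.51%. The locus shares in Cy5 were 3.63%, 2.34% and 0.351%, each below that of all windows.

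Both arrays placed the highest windows at the same positions. The 855 windows correlated between arrays at Pearson r = 0.633 and Spearman rho = 0.394, a description in which neighbouring windows are not independent. Single probes correlated at r = 0.439 (n = 9910). All 27 windows higher in Cy3 were above 0 on both arrays and all 10 higher in Cy5 were below 0 on both, which the test favours by its construction, against 490 of the 818 windows not called with 1 sign on both arrays. The median window of the locus was near 0, at -0.03 on replicate 1 and -0.01 on replicate 2.

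**Figure D1:**
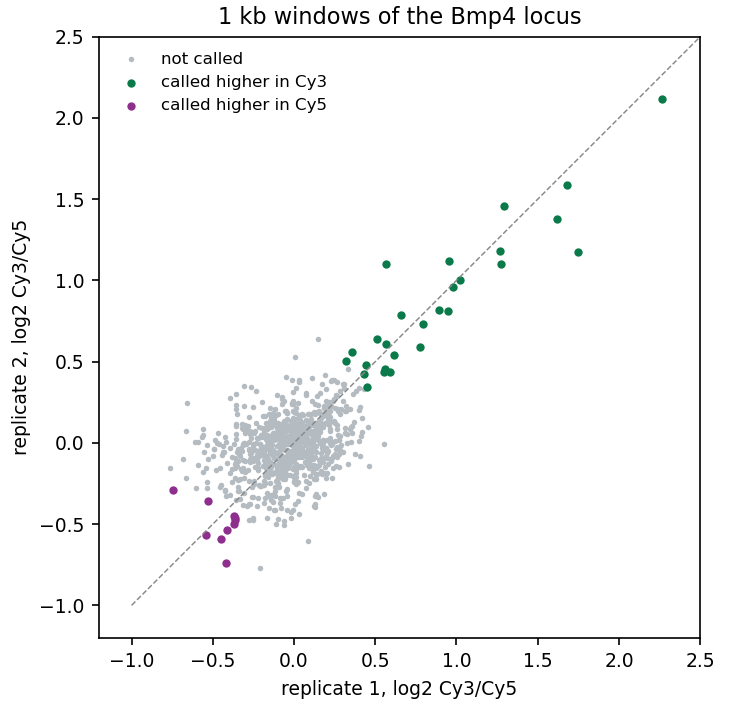
Mean log2 Cy3/Cy5 of each 1 kb window of the Bmp4 locus on replicate 1 (x axis) and replicate 2 (y axis), 1 point per window (n = 855), with the line of equal values dashed. The windows higher in Cy3 run along the line up to 2.27 and 2.12, while the windows not called form a cloud around 0.

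Most of the windows higher in Cy3 lay in regions called from the same probe values, an overlap that follows largely from the calling. Of the 27, 19 lay in 9 regions, which were called from both arrays together on a running median of all probes up to 400 bp away (threshold 0.638, at least 3 probe positions, a description with no test). Across all segments 209 regions were called. The locus held 9.0 per Mb, and the segments ranged from 8.0 to 42.5 per Mb. Called on 1 array alone, the locus had 5 regions on replicate 1 and 10 on replicate 2. Regions 2, 3, 5, 6 and 7 were called on each array alone and under all 15 alternative settings, region 1 under 11, region 4 under 12, region 8 under 13 and region 9 under 9.

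**Figure D2:**
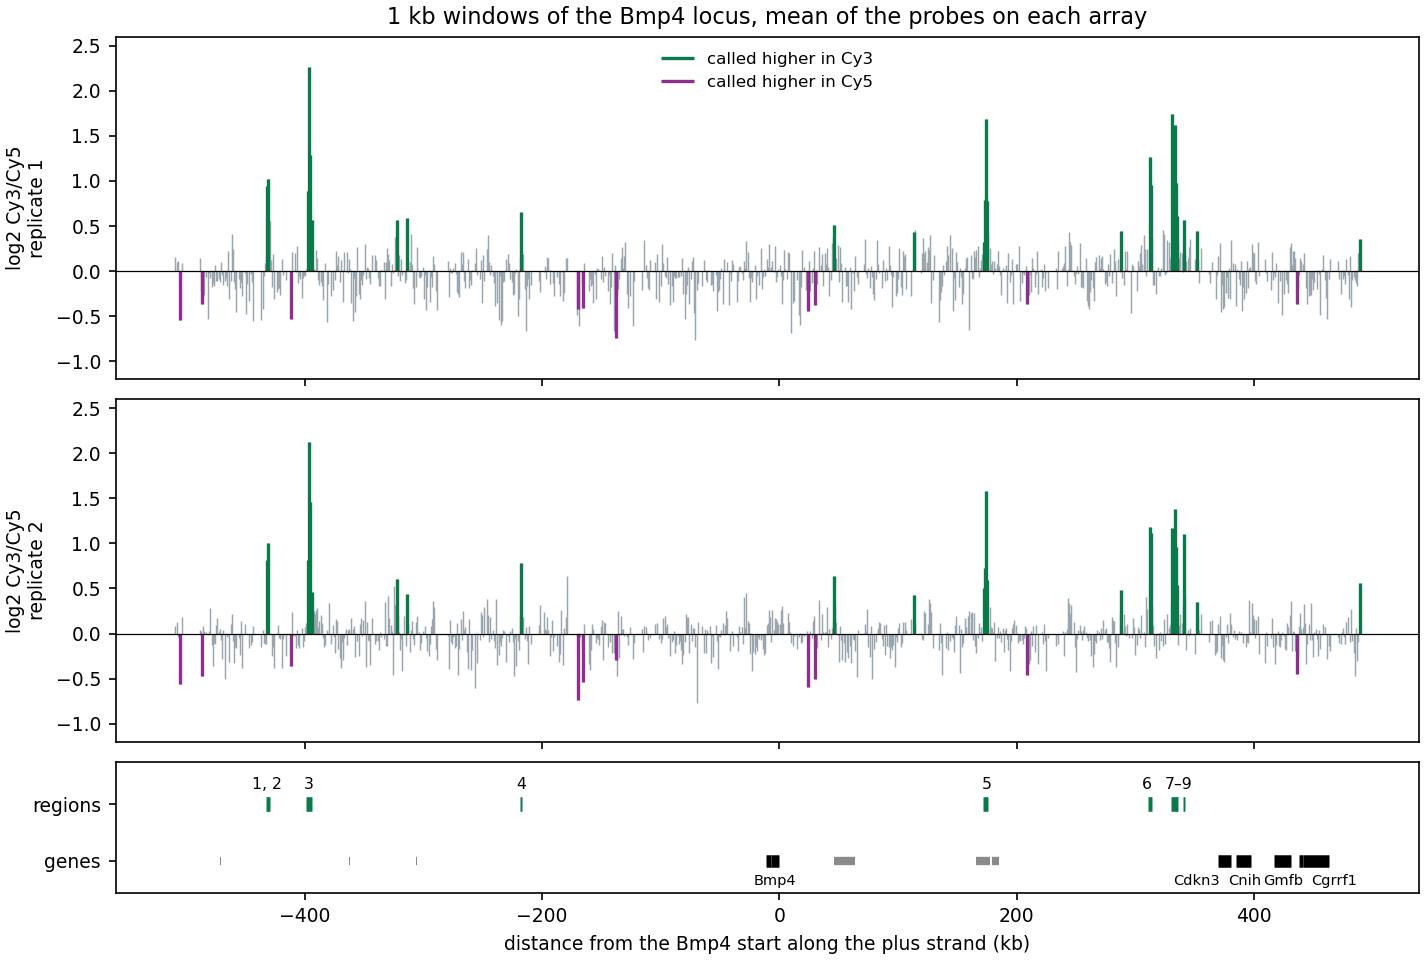
Mean log2 Cy3/Cy5 of each 1 kb window on replicate 1 (top) and replicate 2 (middle) against distance from the Bmp4 start in kb along the plus strand, with the 9 regions (numbered) and the genes below, protein-coding genes in black. On both arrays the tallest windows stand near regions 3, 5, 6 and 7, and no window over Bmp4 is called.

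Region 3 (chr14:46612248-46615283) was the strongest of the locus. Its probes averaged 1.51 on replicate 1 and 1.48 on replicate 2, or 1.50 ± 0.02 (SD, n = 2). At its summit, 396.8 kb from the Bmp4 start on the 3′ side of the gene, the running median was 2.42, rank 4 of the 209 regions of the series, whose highest was 2.86. The region began in the last stretch of Gm15218, a processed transcript that ends at position 46612845, and its summit was intergenic. Its core motif on the plus strand lay 17 bp from the summit.

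The signal behind region 3 was bright on both arrays. Its highest probe (chr14:46613582-46613641) read 39233 in Cy3 and 3519 in Cy5 on replicate 1, and 34056 and 2998 on replicate 2, as processed intensities. These gave centred log2 ratios of 3.42 and 3.46. No probe of the region was saturated or below background on either array.

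The window at the summit of region 3 (chr14:46613000-46613999) was also the highest window of the locus, at 2.27 on replicate 1 and 2.12 on replicate 2 (mean 2.19 ± 0.11 SD, adjusted p = 0.000169 by limma). The next window, starting at 46614000, stood at 1.29 and 1.46 (mean 1.37 ± 0.12 SD, adjusted p = 0.000341 by limma). Called windows reached from 46612000 to 46616999, 5 in a row. In the bin 2.4 kb below the summit the probes averaged -0.54 and -0.31, and in the bins 2.7 and 3.0 kb below it they lay between -0.08 and 0.09, near 0 on both arrays. The other flank stayed above 0. It averaged 0.42 and 0.57 at 2.4 kb above the summit, 0.54 and 0.33 at 2.7 kb, and 0.60 and 0.53 at 3.0 kb.

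Region 5 (chr14:47182788-47185182) lay on the other side of Bmp4, 174.6 kb beyond its start, in an intron of the processed transcript E130120K24Rik. It averaged 1.18 on replicate 1 and 1.09 on replicate 2 (1.14 ± 0.06 SD, n = 2), with a summit of 1.68. The core without mismatch, on the minus strand, lay 50 bp from the summit. Cores of regions 3 and 5 were 571.3 kb apart with Bmp4 between them, and their strands were such that the motifs pointed towards each other. The window at 47184000 had 1.68 and 1.59 (mean 1.63 ± 0.07 SD, adjusted p = 0.000202 by limma). The highest probe, 60 bp at chr14:47184703-47184762, was at 3.05 and 2.91.

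Regions 6 and 7 stood between Bmp4 and Cdkn3, which encodes a phosphatase acting on cyclin-dependent kinases. Region 6 (chr14:47322036-47323699) averaged 1.30 and 1.26 (1.28 ± 0.02 SD, n = 2) and its summit, at 1.73, was 311.8 kb beyond the Bmp4 start. No probe covers the bins from 300 to 900 bp below that summit, so its left edge was not measured. Region 7 (chr14:47341585-47344707) averaged 1.42 and 1.23 (1.33 ± 0.14 SD, n = 2) with a summit of 1.68.

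Region 7 was the longest region of the locus at 3123 bp, rank 8 of 209 by length, and its profile had more than 1 maximum. In bins of 300 bp, the probes averaged 1.99 and 1.67 at the summit, 1.75 and 1.58 at 1.2 kb below it and 1.76 and 1.21 at 2.1 kb below it. The maximum 1.2 kb below the summit appeared on both arrays. No probe covers the bins 2.4 and 2.7 kb below the summit, so the left edge of the region was not measured and the value at 2.1 kb cannot be called a maximum. Region 6 also had a second maximum, at 1.45 and 2.01, 1.5 kb above its summit.

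**Figure D3:**
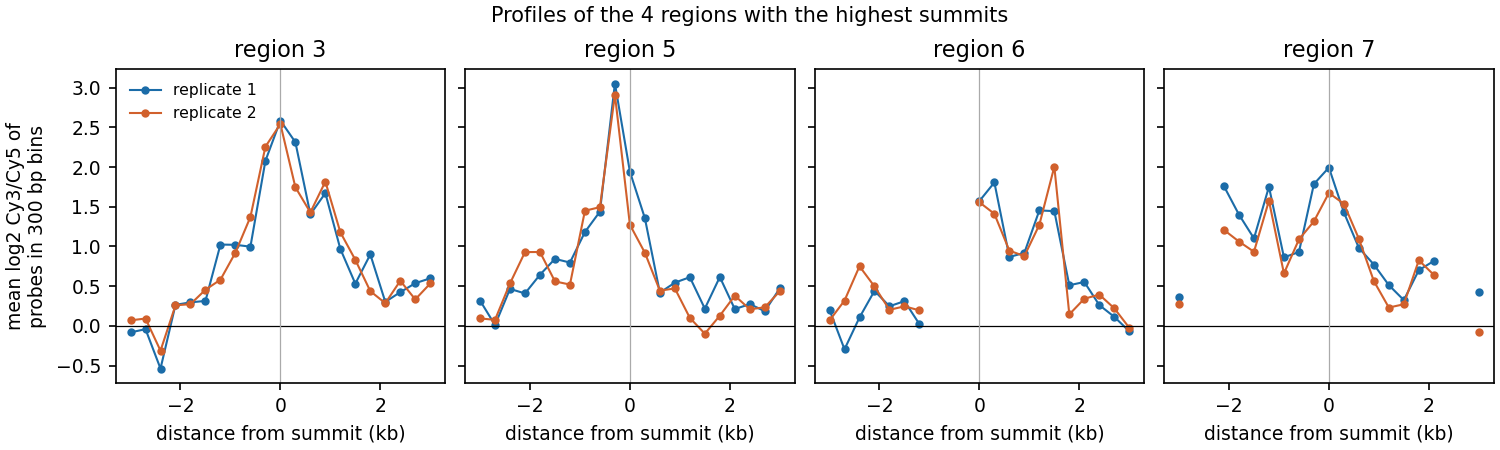
Mean log2 Cy3/Cy5 of the probes in 300 bp bins against distance from the summit in kb for regions 3, 5, 6 and 7, with replicate 1 and replicate 2 as separate lines and gaps where no probe lies. The bin of region 5 at -300 bp holds 1 probe. Region 3 rises to 2.59 and 2.54 at its summit, with a lower maximum of 1.67 and 1.82 in the bin 900 bp above it. Regions 6 and 7 also have more than 1 maximum on both arrays.

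The windows of these regions fill the list of the 10 highest in the locus. Region 7 gave 4 of them: the window at 47343000 had 1.62 and 1.38, that at 47341000 had 1.75 and 1.17, that at 47342000 had 1.28 and 1.10, and that at 47344000 had 0.98 and 0.96. Region 6 gave 2, at 1.27 and 1.18 (start 47322000) and at 0.95 and 1.12 (start 47323000). The adjusted p (limma) of these 6 windows lay between 0.000313 and 0.00127. The widest gap between arrays among them was at 47341000, where only 7 probes were averaged (SD 0.40).

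Regions 1 and 2 were neighbours in an intron of Gm15218, 431 to 432 kb from the Bmp4 start on its 3′ side and 626 bp apart. Region 1 (chr14:46578151-46578390) averaged 1.23 and 1.13 over 4 probes, and region 2 (chr14:46579017-46579628) 1.09 and 1.01 over 8 probes. The window of region 2, from 46579000, was at 1.02 and 1.00 (adjusted p = 0.00101 by limma), and completes the 10 highest. Their summits had running medians of 0.70 and 1.34. The summit of region 1 was below its own mean because the running median also takes in lower probes outside the region.

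The other 3 regions were short and close to the threshold of 0.638. Region 4 (chr14:46792411-46792890, intergenic) averaged 0.85 and 0.87 with a summit of 0.71. Region 8 (chr14:47345758-47345937) averaged 0.91 and 0.84 over 3 probes with a summit of 0.81, and began 1050 bp after region 7 ended. Region 9 (chr14:47351787-47351966) rested on 3 probes that averaged 0.57 and 1.10, the least alike of the 9 (SD 0.38, n = 2), with a summit of 0.67. Its window, at 47351000, still passed the test (mean 0.83, adjusted p = 0.0134 by limma). Just outside the call, the running median was 0.6385 at 1 position near the start of Gm15221.

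**Figure D4:**
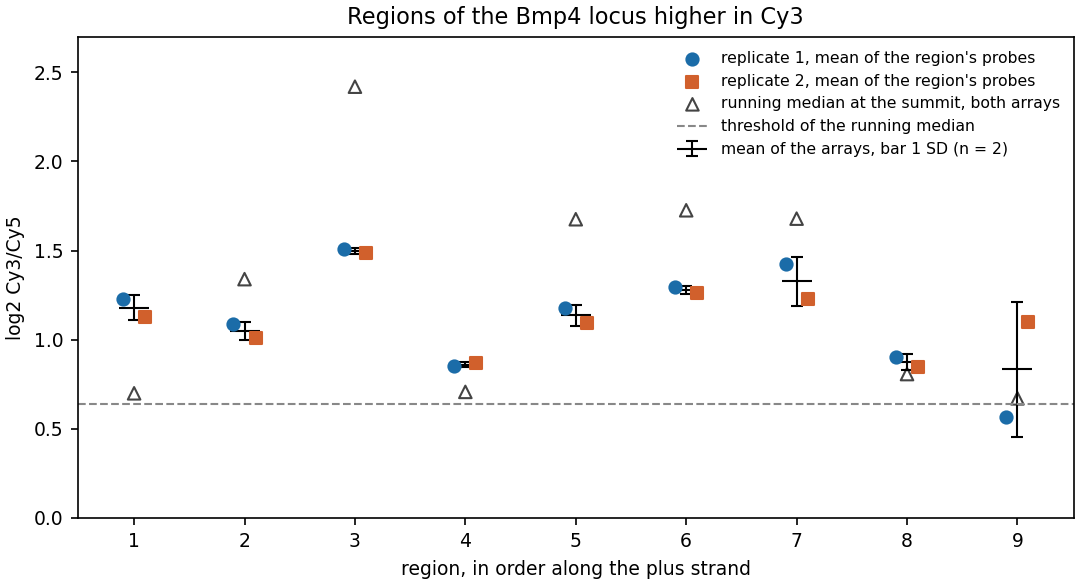
Log2 Cy3/Cy5 of the 9 regions in order along the plus strand: mean of the region's probes on replicate 1 (circles) and replicate 2 (squares), their mean with 1 SD (n = 2), and the running median over both arrays at the summit (triangles) against the threshold of 0.638 (dashed). The arrays lie close together in 8 regions and apart in region 9, at 0.57 and 1.10.

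The regions were then compared by the letters of the CTCF core, which the calls did not use. The core, with at most 1 mismatch, was searched within 500 bp of each summit, whether or not that lay in the called region. It was found for 6 of the 9 regions, or 66.7%, beside 64.1% of all 209 regions. With a reach of 250 bp it was 2 of the 9, or 22.2%, beside 48.3%. Of all tiled stretches of the same 1001 bp, 7.74% held it, and 6.91% of those in the locus. Regions 1 and 2 share the same pair of matches, which lie in the gap between them. The matches near regions 8 and 9 also lie outside the called spans. Regions 4, 6 and 7 had none within 500 bp of the summit. Within the whole called span, a count chosen after these values were seen, the core was found in 4 of the 9, namely regions 3, 5, 6 and 7, beside 61.7% of all 209 regions. The share of all tiled stretches of equal length that hold it was 21.3% for region 3, 17.3% for region 5, 12.5% for region 6 and 21.8% for region 7. On the 3′ side of Bmp4 the core of region 3 was on the plus strand. On the other side those of regions 5, 6 and 7 were on the minus strand. The match near region 8 was on the minus strand and that near region 9 on the plus strand. The matches between regions 1 and 2 were on the minus strand.

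Window by window, 6 of the 27 higher in Cy3 held the core, or 22.2%, beside 7.25% of all windows of the locus. Over the whole series 33.9% of windows higher in Cy3 held it and 7.72% of all windows. None of the 10 windows higher in Cy5 did, beside 4.08% of such windows over the series. These counts are descriptions, and a match is not a binding site.

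The remaining 8 windows higher in Cy3 lay outside the regions and were weaker, from 0.40 to 0.59, with adjusted p between 0.0134 and 0.0497 (limma). The highest of them started at 46687000 (0.57 and 0.61). A second, at 46696000, stood 9 kb away (0.59 and 0.44), and another, at 46616000, bordered region 3 (0.56 and 0.46). One lay at the end of the interval, at 47499000 (0.36 and 0.56), which is the side of Samd4, whose start is 2529 bp beyond the interval. By side, 10 of 424 windows before the Bmp4 start and 17 of 431 beyond it were higher in Cy3, a difference that was not tested.

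The windows higher in Cy5 were shallow and single. The lowest, at 46840000, had -0.42 and -0.74 (mean -0.58 ± 0.23 SD, adjusted p = 0.0242 by limma). That at 46504000 had -0.54 and -0.57, that at 47034000 had -0.45 and -0.59, that at 46872000 had -0.75 and -0.29, and that at 46844000 had -0.41 and -0.54, with adjusted p from 0.0164 to 0.0484 (limma). No 2 of the 10 were neighbours. No region was called on the Cy5 side, where the threshold was -1.11 and 4 regions were called in the whole series. That threshold came from the values above the mode, which include those of the Cy3 regions. The lowest running median of the locus, -0.914, did not reach it. At the threshold of the Cy3 side, 0.638 below 0, there was 1 in the locus and 180 in all.

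Base composition moved with the ratio. The median GC content was 39.6% in the 10 windows higher in Cy5, 43.9% in the 27 higher in Cy3 and 43.0% in all windows of the locus. Window means correlated with GC content at Pearson r = 0.315 (n = 855 windows, a description in which all windows share the same 2 arrays and amplified DNA). With the trend on GC content removed, 28 windows were higher in Cy3 and 1 in Cy5, or 3.27% and 0.117%. Over all windows the shares were then 3.93% and 1.18%, beside 3.69% and 5.41% in the main fit, so calls in Cy5 fell across the series as well. The part of base composition in the calls was not tested further.

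The comparison then turned to Bmp4 itself (chr14:47003195-47010344, minus strand). None of the 8 windows over the gene was called in either direction, and none had an unadjusted p under 0.05 (limma, smallest adjusted p = 0.188). They ranged from -0.02 to 0.23. The window at the start of the gene, from 47010000, stood at 0.07 on replicate 1 and 0.10 on replicate 2 (mean 0.09 ± 0.02 SD, SE 0.10, adjusted p = 0.603 by limma). The 3 annotated Bmp4 transcripts all start in that window. The 106 probes within the gene averaged 0.03 on replicate 1 and 0.11 on replicate 2. With 2 arrays and this SE, a small difference was not detectable.

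Bmp4 lay in a stretch of 389.9 kb without a called region, from region 4 to region 5. Of the 198 stretches between neighbouring regions of a segment this was rank 6 by length. The median was 37.3 kb and the longest 750.1 kb. The stretch was tiled with 3785 probes, and 329 of its windows were measured. Of these 2 were higher in Cy3 and 5 in Cy5, beside 3.69% and 5.41% of all windows, and the low count in Cy3 follows largely from a stretch defined by the absence of regions. Their median was -0.03, beside -0.02 over the locus. Both windows higher in Cy3 lay beyond the Bmp4 start: one at the start of Gm15221 and one at 47123000 (0.43 and 0.42, adjusted p = 0.0373 by limma), which rested on 4 probes.

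The last comparison covered the starts of all 14 genes that begin in the interval, which fall in 13 different windows since Gm10101 and Cgrrf1 share one. By limma, 1 of the 13 was higher in Cy3 and none was higher in Cy5, beside 3.69% and 5.41% of all windows, and at an unadjusted p under 0.05 there were 3 and 0. The median of the 13 was 0.09. The window called was that of Gm15221, a processed transcript that starts 46.2 kb beyond Bmp4. It had 0.51 and 0.64 (mean 0.57 ± 0.09 SD, adjusted p = 0.0161 by limma).

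Among the protein-coding genes, the highest start windows were those of Gmfb, which encodes glia maturation factor beta, and Cnih, which encodes a cornichon protein of vesicle export from the endoplasmic reticulum. Gmfb had 0.31 and 0.36 (mean 0.34 ± 0.04 SD, adjusted p = 0.0744 by limma) and Cnih 0.31 and 0.34 (mean 0.32 ± 0.02 SD, adjusted p = 0.0809 by limma). Neither passed the threshold. Gmfb did so in 1 alternative, without background correction. Cdkn3 was at 0.17 and 0.10, Gm15217, which overlaps the 3′ end of Bmp4, at 0.14 and 0.10, and the window of Gm10101 and Cgrrf1 at 0.07 and 0.07. Cgrrf1 encodes a RING finger protein.

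The starts of the other noncoding genes and pseudogenes were near 0. On replicates 1 and 2, Gm15220 had 0.10 and -0.07, Gm6580 0.13 and 0.05, Gm1821 -0.17 and 0.12, and Gm15219 0.05 and -0.05. Gm15222, which lies inside Bmp4 on the other strand, had -0.13 and 0.16. The start of E130120K24Rik was at 0.15 and -0.14, although the 165 probes along this transcript averaged 0.43 and 0.31, since region 5 lies in its intron 8.9 kb from the start. Along Cdkn3 the 144 probes averaged -0.17 and -0.05, and along Cnih, with 191 probes, -0.15 and -0.02.

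**Figure D5:**
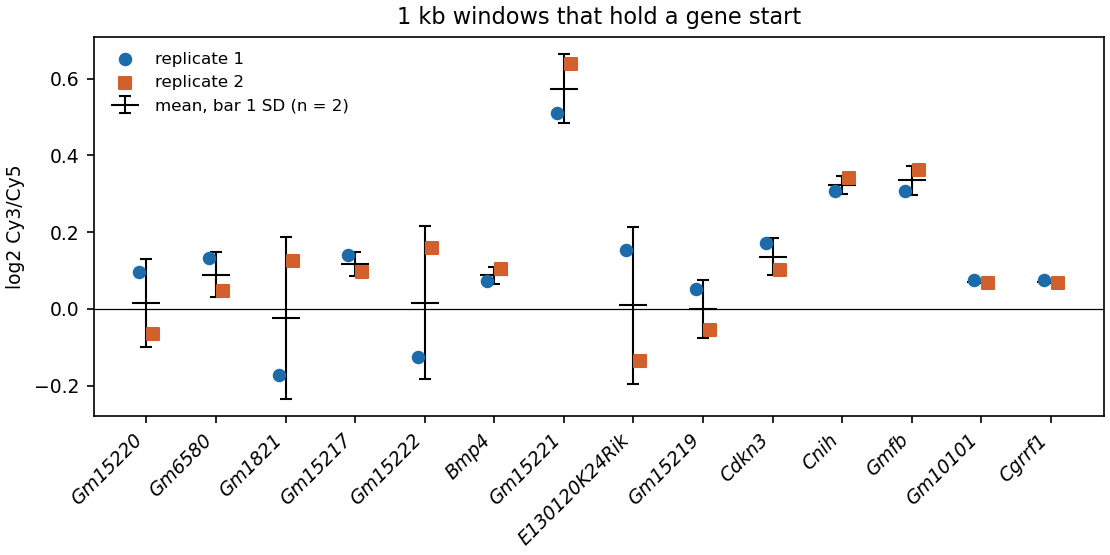
Mean log2 Cy3/Cy5 of the 1 kb window that holds the start of each of the 14 genes, in order along the plus strand, on replicate 1 (circles) and replicate 2 (squares), with the mean and 1 SD (n = 2). The window of Gm15221 is the highest at 0.57, and that of Bmp4 is at 0.09.

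Signal was well above background in the locus. Between 94.5% and 99.4% of its spots were well above background in a channel of an array. Median signal was 46.8 and 58.7 times the local background in Cy3 and 20.7 and 23.8 times in Cy5. Saturated spots were more frequent in Cy5 (80 and 44) than in Cy3 (3 and 1), and 2 lay in region 6 and 1 in region 7. Against the 1721 windows of the other segment on chromosome 14, around Otx2, the share higher in Cy3 was 3.16% against 3.20%, and the share higher in Cy5 1.17% against 4.24%. Neither difference was tested.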

How the data were processed

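Rad21 ChIP-chip was measured on 2 custom Agilent arrays, replicates 1 and 2 of 1 group. The intensities the authors deposited are Feature Extraction 10.5.1.1 processed signals, already background-subtracted and dye-normalized by a linear factor, beside median spot and background signals and quality marks. The log2 table the authors deposited was made with Ringo, with parameters not given in the sources used here. Its rows carry no probe name and were matched through the order of the probe numbers. It served for the direction of the ratio described above and as an alternative. The row match itself rests on the same correlation that was used for the direction. Probe positions are mm9 per the file headers, as are the genome (NCBIM37) and annotation (GENCODE M1).

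The median of an array was subtracted from its log2 Cy3/Cy5 values. Control spots and 27 outlier spots (3 in the locus) were left out, and copies were averaged. Windows of 1 kb with at least 3 probes were tested with limma 3.58.1 (R 4.3.3; lmFit, eBayes, two-sided, Benjamini-Hochberg over all 14947). The p-values measure the spread between 2 flasks, moderated over all windows, and 2 arrays limit the precision. By their labels both arrays had the ChIP DNA in the same dye. A bias of dye, sequence or amplification shared by both would not widen this spread. Regions were called on a running median (400 bp to each side, 5 or more values). The threshold was its null quantile of 0.99, where the null mirrors the values below the mode. For the Cy5 side the null mirrors the values above the mode, those of the Cy3 regions included. A region needed 3 positions, and positions under 600 bp apart were joined. Both steps were also run on simulated data. For the window test the simulated noise was independent between windows and held no dye or GC bias, so that run cannot speak to such biases. Other steps ran in Python 3.11.15 with scipy 1.17.1 and pandas 2.3.3.

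The text names every gene start and region of the interval, the 10 highest windows called and above 0 on both arrays, and the 5 lowest called and below 0 on both. The locus and lists were chosen with earlier results of these data known. Alternatives covered background correction (normexp, offset 50, on median signals, since mean signals were not used here), loess, centring, GC trend, quality marks, deposited values, window size, probe minimum, variance prior, running median width, null quantile, motif mismatches and distance, and each array left out.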

Additional observations from a re-analysis of the deposited data

How the results depend on the processing

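The 27 windows higher in Cy3 numbered 22 to 40 under the alternatives at 1 kb and 2 kb, and 48 of 1474 with windows of 500 bp. The 10 windows higher in Cy5 were less stable: 25 without background correction, 3 after loess, 31 with mode centring, 20 with centring on the locus, 1 with the GC trend removed, 3 when probes not well above background were dropped, 2 with the deposited values, 25 with windows of 500 bp, 19 with at least 8 probes and 0 with a trended, robust prior (limma, 48 at an unadjusted p under 0.05). In each of these the share higher in Cy5 was below that over all windows, except the last, where both were 0. The 9 regions became 18 with normexp, 16 after loess, 24 with the GC trend removed, 5 with the strictest null quantile and 19 with the laxest, and 5 to 10 with a replicate left out. The 6 regions with the core within 500 bp of the summit became 3 of 5 with the strictest quantile. They became 1 of 9 with no mismatch (11.1%, beside 19.6% of all 209 regions) and 2 of 9 within 250 bp (22.2%, beside 48.3%). The shares lay near those of all regions only at the wider distance with mismatches allowed. That difference was not tested, the counts are small, and regions 1 and 2 share their matches. The gene start windows called were 2 without background correction and 1 in every other alternative at 1 kb. Each of the 10 highest windows stayed called in every alternative that measured it. Each of the 5 lowest lost its call in 2 to 6 of them. Causes were not tested. No window or gene start with a call changed sign. The median window of the locus did, from -0.02 to 0.012 with normexp, 0.02 after loess, 0.016 with the GC trend removed and 0.007 with the deposited values, as did some gene starts near 0 that were not called. No paired analysis was possible because the arrays form a single group, and no window test without a replicate because 1 array leaves no residual degrees of freedom.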
